A study of Mus musculus with 8 samples.

Results

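The genes described here are 9 genes by which neurons of the upper layers of the cerebral cortex are recognised: Cux1, Cux2, Rorb, Lamp5, Rasgrf2, Calb1, Wfs1, Neurod6 and Slc30a3. They were chosen as a named set, not by their values, although earlier results of these data were known. All 9 were found by symbol among the 54532 genes of one deposited table and the 28229 genes of the other. All 9 passed the filter on low counts in every comparison. Bulk RNA-seq had been carried out on 8 libraries from the brains of male C57BL/6 mice, taken on Day 21, with 2 libraries in each of 4 groups. The RS group received daily restraint stress and no stroke. The PTS + RS group received a photothrombotic stroke, a cortical infarct made by light and an injected dye, as well as the restraint. The remaining groups, given here by their labels HDAC3 inhibitor and NaCl, were both PTS + RS mice. The former were injected under the skin once a day with RGFP109 at 60 mg/kg, and the latter were the controls of that treatment. The paper calls RGFP109 an inhibitor of histone deacetylase 3 (HDAC3) and describes it as selective for both HDAC1 and HDAC3. No sample was free of restraint, and none had a stroke without it. The sample labels give cortex as the tissue of the PTS + RS and RS libraries and of replicate 1 of the HDAC3 inhibitor and NaCl groups, and amygdala as the tissue of replicate 2 of both. The study states that samples were pooled and barcoded, and does not make clear whether a library holds a single mouse or several, so p-values measure only the spread between these libraries.

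The cerebral cortex is built in layers of excitatory neurons. Those of the upper layers connect cortical areas with one another and with the opposite hemisphere or, in the granular layer, receive thalamic input, while those of the deep layers project to targets below the cortex. Transcription factors of the upper layers are Cux1 and Cux2, homeodomain proteins that shape dendrites and spines, and Rorb, a nuclear receptor of the granular layer. Neurod6 is a basic helix-loop-helix factor of excitatory neurons in cortex and hippocampus. The other members are effectors: Lamp5 is a membrane protein of endosomes, Rasgrf2 an exchange factor for Ras, Calb1 a calcium-binding protein, Wfs1 a membrane protein of the endoplasmic reticulum, and Slc30a3 the transporter that loads zinc into synaptic vesicles. Several are not restricted to upper layers: Calb1, Wfs1 and Slc30a3 are also expressed in the hippocampus, and Calb1 and Lamp5 in interneurons. Bulk RNA cannot tell fewer cells of a type from less RNA per cell.

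Promoter sequence is shown for a few members because the set shares a cell type and includes factors that bind DNA themselves. RefSeq windows on GRCm38.p6 were matched for 8 of the 9 genes (all but Calb1), with 12 start sites between them, and the 250 bases before each start were searched on both strands. The first motif was CAGNTG, one form of the E-box that basic helix-loop-helix proteins bind, searched on the other strand as its reverse complement. Other forms of the E-box were not searched. The second was the palindrome ATCGAT, which Cut homeodomain proteins bind. The third was AGGTCA, the core bound by ROR receptors, also searched as its reverse complement. CAGNTG was found in 6 of the 12 windows, against 44.8% of all 32851 promoter windows of this length. ATCGAT was found in 1 window, at the second start of Cux2, against 0.728% of all, and AGGTCA in 0 windows, against 14% of all. The first sequence is that of Neurod6, whose level varied most among the 9 genes, at chr6:55681264-55681513 on the minus strand, with its CAGNTG motif in capitals. The second is that of the first start of Slc30a3, the member closest to the mean pattern of the set, at chr5:31108245-31108494 on the minus strand. The third is that of the first start of Rorb, the member with the lowest level, at chr19:19111197-19111446 on the minus strand. The Slc30a3 and Rorb windows hold none of these motifs.
Neurod6: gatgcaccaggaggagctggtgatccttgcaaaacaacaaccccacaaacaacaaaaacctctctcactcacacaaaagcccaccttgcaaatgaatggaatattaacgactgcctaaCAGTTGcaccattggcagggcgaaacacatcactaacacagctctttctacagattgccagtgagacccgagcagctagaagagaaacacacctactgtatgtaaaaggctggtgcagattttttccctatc
Slc30a3: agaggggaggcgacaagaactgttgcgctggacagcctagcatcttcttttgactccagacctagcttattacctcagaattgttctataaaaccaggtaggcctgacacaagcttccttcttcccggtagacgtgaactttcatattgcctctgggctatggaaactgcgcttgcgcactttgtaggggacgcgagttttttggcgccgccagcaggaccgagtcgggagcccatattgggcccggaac
Rorb: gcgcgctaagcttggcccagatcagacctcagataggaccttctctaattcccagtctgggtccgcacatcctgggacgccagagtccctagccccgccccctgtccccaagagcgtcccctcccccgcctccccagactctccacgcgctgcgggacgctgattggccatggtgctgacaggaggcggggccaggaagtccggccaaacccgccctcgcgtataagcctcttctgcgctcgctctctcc

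Before the members are described, the libraries have to be set against their tissue labels. Each library held between 15902013 and 21712033 counts. NaCl replicate 1, labelled cortex, stood apart: its summed level of 8 olfactory bulb genes was 1293 CPM (counts scaled to the size of each library), against 11.4 to 17.1 CPM in the other 7 libraries. The summed level of 8 glutamatergic neuron genes was 2912 CPM in this library and 6017 to 8058 CPM in the others, and that of 8 GABAergic interneuron genes was 2338 CPM against 740.6 to 980.4 CPM. The libraries labelled amygdala had 1122 and 1246 CPM of 8 striatal genes, against 121.5 to 199 CPM in the other 6. Their summed level of 8 amygdala genes, 99.0 and 108.4 CPM, lay within the 93.5 to 113.3 CPM of the cortex-labelled libraries other than NaCl replicate 1, which had 378.2 CPM, of which 339.6 CPM was Tshz1. The sum does not stand for each gene, since 7 of the 8 amygdala genes were fitted higher in the libraries labelled amygdala than in the cortex-labelled ones of their experiment, with a median log2 fold change of 0.62 and 0 past the threshold. Isl1, a LIM homeodomain factor, had 1.92 and 2.77 CPM in the libraries labelled amygdala and 0 and 0.057 CPM in those labelled cortex. A list of 8 hippocampal genes summed to between 531.2 and 868.7 CPM in 5 libraries and to between 51.3 and 60.5 CPM in HDAC3 inhibitor replicate 2 and both NaCl libraries. HDAC3 inhibitor replicate 1, with 634.7 CPM, thus also stood apart in its experiment, and it had 2188 CPM of 8 choroid plexus genes against 180.4 to 219.2 CPM in the other 3 libraries there. The 10 pan-neuronal genes varied least, from 5924 to 7153 CPM. The part of these differences in the results below was not tested, except where a value without a library is given.

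**Figure D1:**
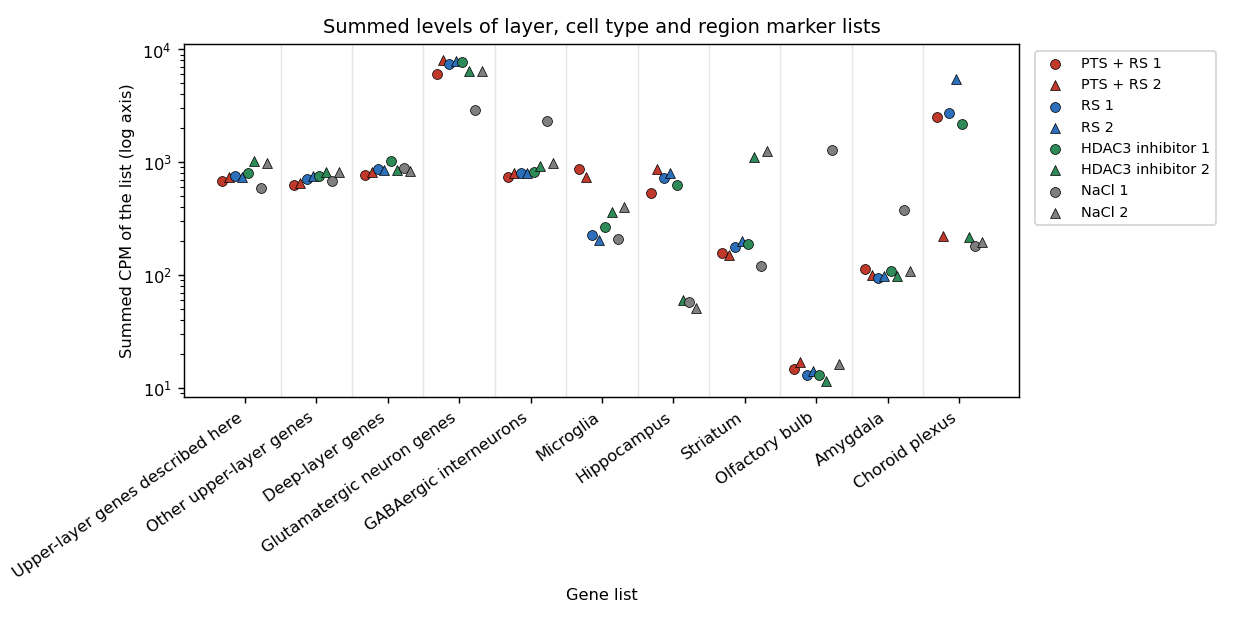
Summed CPM of the 9 upper-layer genes described here and of 10 other gene lists in each of the 8 libraries, on a log axis. Colours mark the group, circles replicate 1 and triangles replicate 2. NaCl replicate 1 stands far above the other libraries in the olfactory bulb list (1293 CPM), and the libraries labelled amygdala stand above the rest in the striatal list (1122 and 1246 CPM).

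The set as a whole summed to 683.5 and 738.6 CPM in the PTS + RS libraries and to 757.3 and 744 CPM in the RS libraries. In the second experiment it summed to 795.4 and 1030 CPM in the HDAC3 inhibitor libraries and to 593.8 and 985.6 CPM in the NaCl libraries, replicate 1 first. As a share of the pan-neuronal sum, these were 11.5% and 11.8% in PTS + RS, 11.8% and 12.2% in RS, 11.9% and 14.4% with the HDAC3 inhibitor, and 9.42% and 14.5% with NaCl. The lowest sum and share were thus those of NaCl replicate 1, and the highest sums and shares those of the libraries labelled amygdala.

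Levels of different genes were compared per length, in FPKM as the authors deposited them. The tables come from separate experiments, so levels set across them are a description only. In the RS group, Neurod6 was highest with 74.2 ± 6.03 FPKM (SD, n = 2), followed by Wfs1 with 46.0 ± 0.488, Slc30a3 with 26.6 ± 0.587 and Calb1 with 22.8 ± 0.905. Rasgrf2 with 10.8 ± 1.49 FPKM and Lamp5 with 10.2 ± 0.583 overlapped in their libraries. The lowest members in RS were 3 transcription factors, Cux2 with 3.76 ± 0.438 FPKM, Cux1 with 2.32 ± 0.115 and Rorb with 1.24 ± 0.0799. In the PTS + RS group the order was less sharp, since the libraries of Wfs1, Slc30a3 and Calb1 overlapped, as did those of Lamp5 and Rasgrf2, and those of Cux2 and Cux1. Rorb was the lowest of the 9 genes in all 8 libraries. Neurod6 was the highest in the 5 libraries with a high hippocampal sum, and ranked 5, 8 and 5 of 9 in HDAC3 inhibitor replicate 2 and NaCl replicates 1 and 2.

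**Figure D2:**
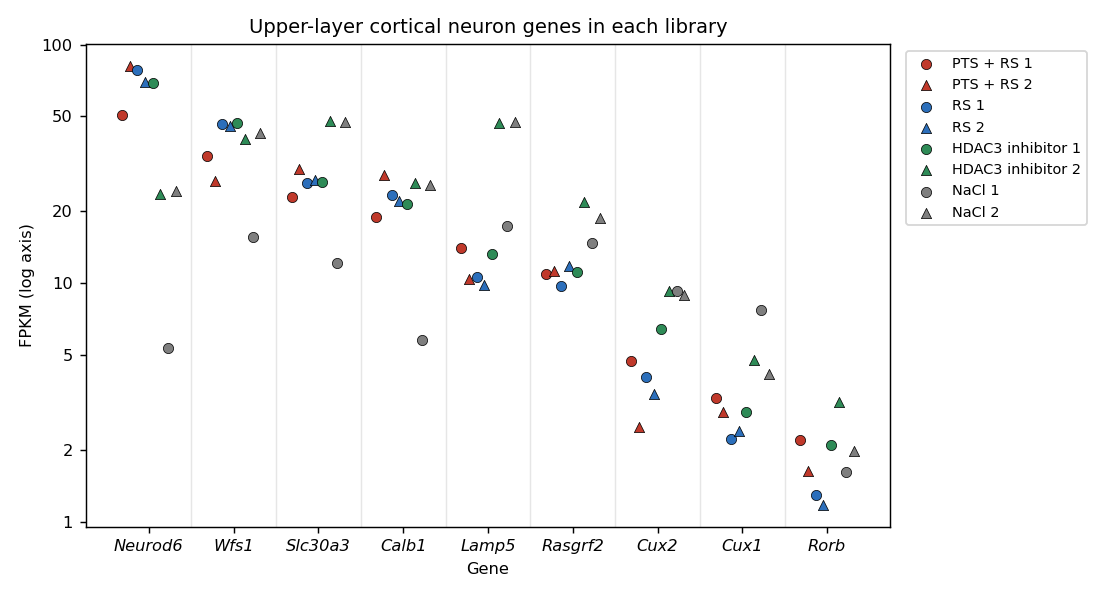
FPKM of the 9 genes in each library, on a log axis, with genes ordered from the highest to the lowest mean in RS, except that Lamp5 stands before Rasgrf2. Colours mark the group, circles replicate 1 and triangles replicate 2. Neurod6 spans the widest range, from 5.36 FPKM in NaCl replicate 1 to 81.4 FPKM in PTS + RS replicate 2.

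The comparison of PTS + RS with RS asks what a stroke adds to restraint in libraries labelled cortex. Wfs1 fell, and it was the only one of the 9 genes to pass the threshold. The other 8 genes did not, and their fitted values lay between -0.17 and 0.64 on the log2 scale. The median log2 fold change of the set was 0.044, beside -0.0015 over all 17581 tested genes. A gene passed when edgeR's quasi-likelihood test gave it a p under 0.05 after adjustment over all tested genes, which 2.96% of tested genes passed with higher and 0.586% with lower levels in PTS + RS.

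Wfs1 (ENSMUSG00000039474, chr5:36966104-36989205, minus strand, GRCm38) had 131.2 and 102.5 CPM in the PTS + RS libraries and 176.4 and 173.5 CPM in the RS libraries. Both PTS + RS libraries lay below both RS libraries, and they differed from each other more than the RS libraries did. The log2 fold change was -0.58 ± 0.117 (SE), a 1.5-fold lower level, with an adjusted p of 0.0473. The call was lost with limma-voom (adjusted p = 0.0502), without RS replicate 1 (0.11) and without RS replicate 2 (0.0859), while the log2 fold change stayed between -0.77 and -0.42 in all alternatives.

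Cux1 (ENSMUSG00000029705, chr5:136248135-136567490, minus strand) had 67.1 and 57.9 CPM in PTS + RS and 45.0 and 48.2 CPM in RS. Both stroke libraries lay above both RS libraries, with a log2 fold change of 0.42 ± 0.102 and an adjusted p of 0.0785. Rorb (ENSMUSG00000036192, chr19:18930605-19111196, minus strand) had 24.7 and 18.2 CPM in PTS + RS and 14.4 and 13.1 CPM in RS. Its libraries did not overlap either, with a log2 fold change of 0.64 ± 0.174 and an adjusted p of 0.11. Neither gene passed the threshold in the fit reported here, although both did without a filter on low counts, with adjusted p-values of 0.00441 and 0.00285. Without that filter, 1119 of all 30105 tested genes were called higher, against 521 of 17581 with it. Without PTS + RS replicate 2 the log2 fold changes were 0.52 and 0.84, and without PTS + RS replicate 1 they were 0.31 and 0.40. Leaving out a PTS + RS library leaves 1 in that group, so only log2 fold changes are given for these fits. Cux1, Rorb and Wfs1 were the 3 of 9 genes whose libraries did not overlap between the groups, against 50.2% of all tested genes.

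Cux2 (ENSMUSG00000042589, chr5:121856366-122050102, minus strand), the close relative of Cux1, had 48.2 and 25.2 CPM in PTS + RS and 41.2 and 34.9 CPM in RS. The stroke libraries enclosed the RS libraries, and the log2 fold change was -0.051 ± 0.269, so that a difference was not detectable against the spread within PTS + RS. Without PTS + RS replicate 1 the value for Cux2 was -0.60, and without replicate 2 it was 0.34. Neurod6 (ENSMUSG00000037984, chr6:55677822-55681263, minus strand) had 110 and 175.9 CPM in PTS + RS and 169.6 and 150.9 CPM in RS, again with overlapping libraries and a log2 fold change of -0.17 ± 0.197. PTS + RS replicate 1 was the library with low Neurod6, and without it the value was 0.13. Without PTS + RS replicate 2, the value for Neurod6 was -0.55.

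Lamp5 (ENSMUSG00000027270, chr2:136052239-136069917, plus strand) had 41.7 and 30.6 CPM in PTS + RS and 31.4 and 29.0 CPM in RS, a log2 fold change of 0.26 ± 0.156. Calb1 (ENSMUSG00000028222, chr4:15881264-15908064, plus strand) had 92.3 and 138.1 CPM in PTS + RS and 114.1 and 107.6 CPM in RS, a log2 fold change of 0.055 ± 0.171. In both genes the libraries of the groups overlapped. Lamp5 had a value of 0.015 without PTS + RS replicate 1 and of 0.46 without replicate 2. Calb1 had values of opposite sign, 0.31 without PTS + RS replicate 1 and -0.27 without replicate 2. Rasgrf2 (ENSMUSG00000021708, chr13:91880400-92131656, minus strand) had 102.5 and 104 CPM in PTS + RS and 90.5 and 109.9 CPM in RS. Slc30a3 (ENSMUSG00000029151, chr5:31086106-31108237, minus strand) had 65.9 and 86.2 CPM in PTS + RS and 74.7 and 76.9 CPM in RS. Their log2 fold changes, 0.044 ± 0.103 and 0.0046 ± 0.127, were smaller than their standard errors. Genes that overlap Slc30a3 on the opposite strand held at most 22 counts in any library, and those that overlap Cux1 or Cux2 at most 4.

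Further layer genes were taken from fixed lists. Of 15 further upper-layer genes, 0 were higher and 1 was lower past the threshold, with a median log2 fold change of 0.19. The lower one was Pou3f1, a POU-domain transcription factor, with 43.2 and 61.5 CPM in PTS + RS and 85.9 and 101.5 CPM in RS and a log2 fold change of -0.84 (adjusted p = 0.0446). Of 15 deep-layer genes, 0 passed the threshold, with a median of 0.038. Among them Nr4a2, a nuclear receptor, had the largest value in size, -0.51 with an adjusted p of 0.138. Of 8 glutamatergic neuron genes 0 passed, with a median of -0.15, and of 10 pan-neuronal genes 0 passed, with a median of -0.046.

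Glial genes differed between the same libraries. All 8 microglial genes rose in PTS + RS with a median log2 fold change of 1.88, and their sum was 877.9 and 746.7 CPM against 224.6 and 202.7 CPM in RS. Of 8 astrocyte genes 4 rose, with sums of 7778 and 6585 CPM against 4449 and 4496 CPM. All 8 choroid plexus genes had lower levels without overlap between the groups, and 0 passed the threshold. Their sums were 2498 and 220.1 CPM in PTS + RS and 2729 and 5501 CPM in RS. The hippocampus also expresses Wfs1, and the hippocampal sum was 531.2 and 868.7 CPM against 729.9 and 810.2 CPM, so that the groups overlapped. The part of these lists in the lower level of Wfs1 was not tested.

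**Figure D3:**
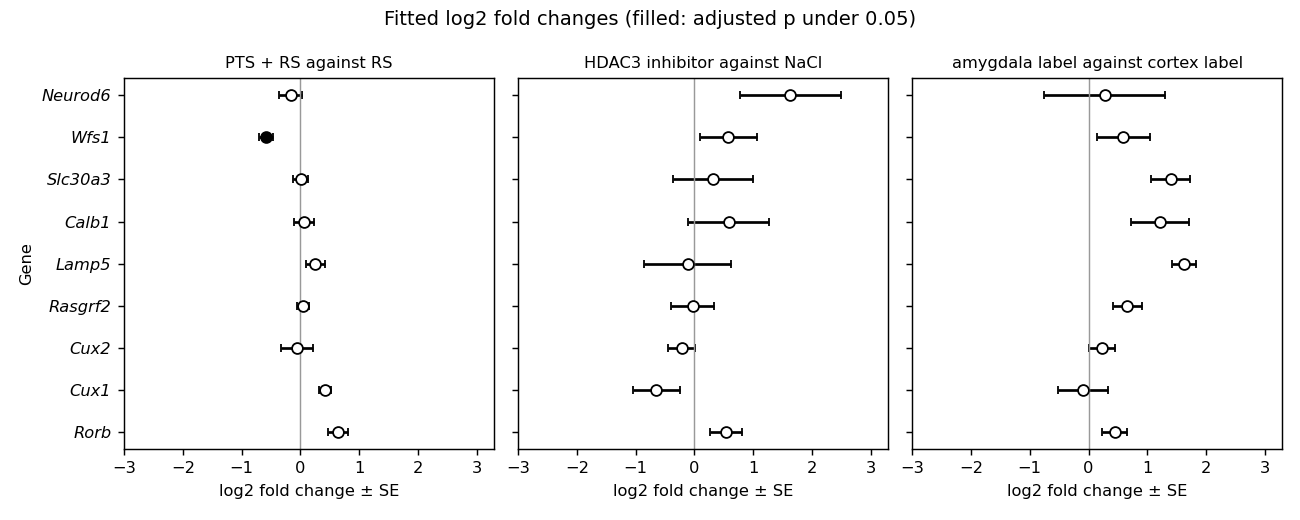
Fitted log2 fold changes of the 9 genes in the 3 comparisons, with bars of 1 standard error from edgeR (2 libraries in each group). The filled point, Wfs1 in PTS + RS against RS at -0.58, is the only one past the threshold. Bars are longer in the comparisons of the second experiment, except for Cux2 (0.269 in the first, 0.228 and 0.225 in the second).

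The comparison of HDAC3 inhibitor with NaCl asks what RGFP109 changes in PTS + RS mice. None of the 9 genes passed the threshold (0 of 9), nor did any of the 17565 tested genes (0% higher and 0% lower), with edgeR, DESeq2 or limma-voom on the 4 libraries. Leaving out NaCl replicate 2 keeps NaCl replicate 1, high in olfactory bulb genes, as the only control, so no calls are given for that fit. At an unadjusted p under 0.05, edgeR gave 88 genes higher and 118 lower, of which 0 were among the 9. The median log2 fold change of the set was 0.31, beside -0.016 over all tested genes. The biological coefficient of variation was 32.1%, against 11.4% between the PTS + RS and RS libraries, and each group here joins a library labelled cortex with one labelled amygdala.

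Neurod6 had the largest fitted value, with 149 and 50.8 CPM in the HDAC3 inhibitor libraries and 11.7 and 52.7 CPM in the NaCl libraries. High was the cortex-labelled inhibitor library and low was NaCl replicate 1, while the libraries labelled amygdala lay together between them. The log2 fold change was 1.63 ± 0.859 with an unadjusted p of 0.118. Wfs1 had 178.5 and 151.6 CPM with the inhibitor and 60.1 and 161.7 CPM with NaCl, and Calb1 had 104 and 126.9 CPM with the inhibitor and 28.4 and 125.9 CPM with NaCl. In both genes NaCl replicate 1 alone was low, and the log2 fold changes were 0.57 ± 0.484 and 0.58 ± 0.686. Slc30a3 followed the same order in the cortex-labelled libraries, with 75.5 and 135.3 CPM with the inhibitor and 34.8 and 135.2 CPM with NaCl, a log2 fold change of 0.31 ± 0.682.

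Cux1 went the other way, with 58.0 and 95.5 CPM with the inhibitor and 156.7 and 83.9 CPM with NaCl. Here NaCl replicate 1 was the highest of the 8 libraries, and the log2 fold change was -0.65 ± 0.4. Cux2 had 65.1 and 93.8 CPM with the inhibitor and 94.4 and 90.2 CPM with NaCl (-0.22 ± 0.228), and Rasgrf2 had 102.8 and 203.2 CPM with the inhibitor and 138.1 and 174.7 CPM with NaCl (-0.031 ± 0.368). Lamp5 had 39.1 and 137.2 CPM with the inhibitor and 51.4 and 139.2 CPM with NaCl (-0.11 ± 0.739). For these genes the spread between replicates covered the difference between the groups. Rorb, with 23.3 and 35.3 CPM with the inhibitor and 18.2 and 22.1 CPM with NaCl, was the only one of the 9 genes whose libraries did not overlap, against 26.6% of all tested genes, and its log2 fold change was 0.54 ± 0.276 with an unadjusted p of 0.109.

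Within each tissue label there is 1 library of each treatment, so the ratio of HDAC3 inhibitor to NaCl can be given but not tested. Among the cortex-labelled libraries the log2 ratio ran from -1.43 for Cux1 to 3.66 for Neurod6, with 1.87 for Calb1, 1.57 for Wfs1 and 1.12 for Slc30a3. Among the libraries labelled amygdala it ran from -0.093 for Wfs1 to 0.67 for Rorb, and 6 of the 9 genes lay within 0.1 of 0. The large ratios were thus those between HDAC3 inhibitor replicate 1 and NaCl replicate 1, both of which stood apart in their marker lists. Without NaCl replicate 1 the set's median was -0.13, and without HDAC3 inhibitor replicate 1 it was 0.53. With the replicate number as a block, which here is the tissue label, the median was 0.52 and 0 passed.

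**Figure D4:**
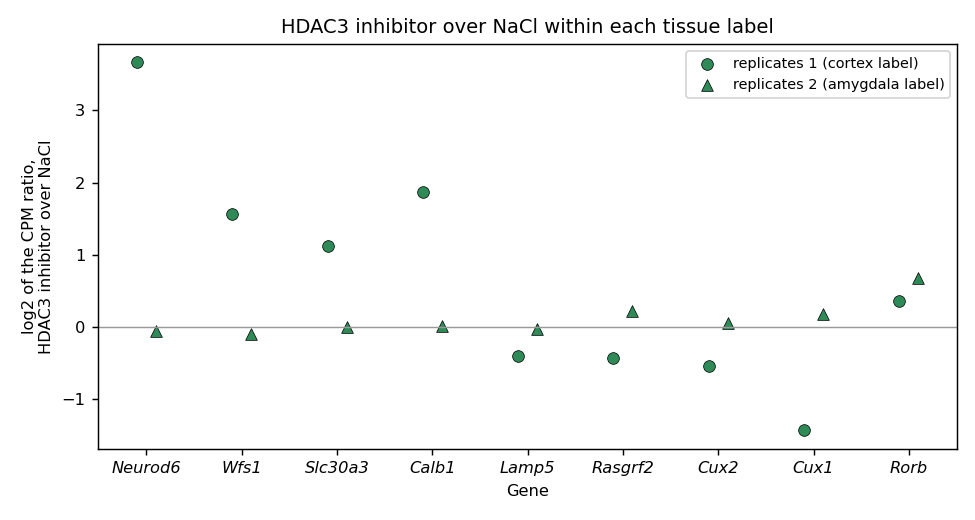
The log2 ratio of CPM in the HDAC3 inhibitor library to that in the NaCl library for each of the 9 genes, with 1 pair of libraries labelled cortex (circles) and 1 pair labelled amygdala (triangles). The cortex-labelled ratios spread from -1.43 to 3.66, and the amygdala-labelled ratios from -0.093 to 0.67.

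Further layer genes in this comparison are given beside the set. Of 15 further upper-layer genes 0 passed, with a median of 0.25, and of 15 deep-layer genes 0 passed, with a median of 0.15. Cell type and region lists also had medians away from 0, with 0 genes past the threshold. The median was 0.65 for the glutamatergic neuron genes, of which 7 of 8 lay above 0, and 0.11 for the pan-neuronal genes. It was -0.41 for the GABAergic interneuron genes and 2.93 for the hippocampal genes, of which all 7 tested lay above 0. The part of these lists in the values of the 9 genes was not tested. Among the deep-layer genes, the largest values in size were those of Syt6, a synaptotagmin of corticothalamic neurons, at -2.65, and of Nxph4, a secreted neurexophilin, at -2.11. Syt6 had 225.9 CPM in NaCl replicate 1 and between 9.01 and 31.3 CPM in the other 3 libraries.

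The libraries labelled amygdala were compared with those labelled cortex, treatment held constant, because the members are genes of cortical layers and so bear on the label. None of the 9 genes passed the threshold (0 of 9), nor did any other of the 17565 tested genes (0% in either direction). Unadjusted p-values under 0.05 were given to 1069 genes with higher and 538 with lower levels in the libraries labelled amygdala, of which 3 and 0 were among the 9. The upper-layer genes were present in the libraries labelled amygdala at levels that, for 8 of 9 genes, were fitted higher than in those labelled cortex, with a median log2 fold change of 0.59 beside -0.013 over all tested genes. Other lists had medians of like size with 0 genes past the threshold, so the shift is not shown to be particular to the set. The median was 0.60 for the glutamatergic neuron genes (8 of 8 above 0), 0.60 for the oligodendrocyte genes (8 of 8 above 0), 0.75 for the microglial genes (7 of 8 above 0) and 0.17 for the pan-neuronal genes.

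Lamp5 had the largest value. Its libraries labelled amygdala had 137.2 and 139.2 CPM, close together and above the 39.1 and 51.4 CPM of those labelled cortex. The log2 fold change was 1.62 ± 0.203, with an unadjusted p of 0.000741 and an adjusted p of 0.292. Slc30a3, with 135.3 and 135.2 CPM against 75.5 and 34.8 CPM, had a log2 fold change of 1.40 ± 0.327 (adjusted p = 0.412), and Rasgrf2, with 203.2 and 174.7 CPM against 102.8 and 138.1 CPM, had 0.66 ± 0.241 (adjusted p = 0.534). With DESeq2, Lamp5 and Slc30a3 passed the threshold, with adjusted p-values of 0.00016 and 0.0154, where 156 genes were called higher and 53 lower in all. Calb1, with 126.9 and 125.9 CPM against 104 and 28.4 CPM, had 1.21 ± 0.494 (adjusted p = 0.573). These 4 of the 9 genes were those whose libraries did not overlap between the labels, against 44% of all tested genes.

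In the remaining 5 genes the libraries of the labels overlapped. Wfs1 had a log2 fold change of 0.59 ± 0.446, Rorb of 0.45 ± 0.215, Neurod6 of 0.27 ± 1.03, Cux2 of 0.23 ± 0.225 and Cux1 of -0.094 ± 0.433. Without NaCl replicate 1, the 2 libraries labelled amygdala were compared with the HDAC3 inhibitor library labelled cortex alone, which was assumed to vary as they did. With 3 libraries the treatment could not be held constant, so this fit also dropped the treatment term, and its values compare the mean of both treatments with the inhibitor. On all 4 libraries, dropping that term alone gave 0 of 9 genes and a median of 0.47. In the fit on 3 libraries 5 of the 9 genes were higher, against 8.27% of all genes tested, and 1 was lower, against 5.51%. The higher ones were Lamp5 (1.83), Rasgrf2 (0.89), Slc30a3 (0.85), Cux1 (0.64) and Cux2 (0.51), and the lower one was Neurod6 (-1.51). Against NaCl replicate 1 alone, likewise with no treatment term, 7 were higher (15.1% of all genes) and 1 was lower (13.6%), and Neurod6 was among the higher with 2.15 while Cux1 was the lower one with -0.80. The sign for Neurod6, Cux1, Cux2 and Wfs1 therefore differed between these fits.

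Region and layer lists are given beside these values. All 8 striatal genes were higher in the libraries labelled amygdala without overlap, with a median of 3.22, and 0 passed the threshold. Of the further upper-layer genes 0 of 15 passed, with a median of 0.38. Among the larger values were those of Otof, which encodes otoferlin, at 2.77, with 54.1 and 59.5 CPM against 14.2 and 4.66 CPM, Rspo1, a secreted Wnt agonist, at 2.62, and Mdga1, an adhesion protein, at -1.98. Of the deep-layer genes 0 of 15 passed, with a median of 0.53, and Foxp2, a forkhead factor also expressed in the striatum, had the largest value at 1.81. The part of the striatal and hippocampal lists in the levels of the 9 genes was not tested.

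Across all 8 libraries the members did not follow one pattern. The mean of their centred log2 CPM was lowest in NaCl replicate 1 (-0.55) and highest in HDAC3 inhibitor replicate 2 (0.53). Slc30a3 followed this mean most closely (Pearson r = 0.933 over 8 libraries from 2 experiments) and Lamp5 next (0.740), while Cux1 (-0.078) and Neurod6 (0.163) hardly followed it. Of 16947 genes tested in both tables, those in no list that were closest to the mean were Phactr1 (0.995), Pcsk2 (0.991), Syt4 (0.986), Atmin (0.986) and Lancl1 (0.981). The mean contains the members themselves, so their correlations with it are not comparable to those of the other genes. All these correlations rest on few libraries that share their experiment and are given as a description.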

How the data were processed

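RNA-seq of 8 libraries from mouse brain was analysed, with 2 libraries in each of 4 groups, taken as the sample labels give them. According to the methods and the submitters' processing notes, STAR 2.4.0 placed the authors' paired-end reads on GRCm38 and HTSeq 0.6.1 counted them per gene. The deposited counts are not normalized, and the deposited FPKM were calculated by the authors from these counts and the gene length. Whether counting used strand is not given in the sources used here. The deposited fold changes, p-values and adjusted p-values of the authors' own comparisons, and 8 columns of per-library values other than counts and FPKM, were not used.

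The 9 genes, the gene lists and the comparisons were chosen with earlier results of these data known. Counts were filtered with filterByExpr at its defaults, normalized by TMM and compared by edgeR's quasi-likelihood test (edgeR 4.0.16, R 4.3.3), with Benjamini-Hochberg adjustment over all tested genes and a threshold of 0.05. The model held the group, or, for the tissue label, the label and the treatment. CPM are counts scaled to the TMM library size, and ratios of single libraries used a prior count of 2. Further genes were named only from fixed lists, by the largest changes among those past the threshold or else the largest in size, and the 5 genes most like the set by Pearson correlation of log2 (CPM + 0.5) over 8 libraries. One gene that this rule names is not reported here. Alternatives were DESeq2 size factors, DESeq2 1.42.0, limma-voom (limma 3.58.1), no filter, a log2 fold change of at least 1, the replicate number as a block, no treatment term, and leaving out each library. Scripts were tested on simulated data. Counts on genes were 15902013 to 21712033 per library, and the correlation of log CPM between replicates was 0.943 to 0.990. Libraries with the same replicate number shared a tissue label in the second experiment (correlation of their deviations 0.299). Promoter sequences are those of RefSeq on GRCm38.p6.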

Additional observations from a re-analysis of the deposited data

Results flagged for a closer look

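For 5 of the 9 genes the ratio of HDAC3 inhibitor to NaCl had opposite signs in the libraries labelled cortex and in those labelled amygdala. With 1 library of each treatment per label, the difference between the labels was not tested. The log2 ratio in the cortex-labelled libraries, followed by that in the amygdala-labelled libraries, was -1.43 and 0.19 for Cux1, -0.54 and 0.057 for Cux2, -0.43 and 0.22 for Rasgrf2, 1.57 and -0.093 for Wfs1, and 3.66 and -0.052 for Neurod6. All 5 cortex-labelled ratios are between HDAC3 inhibitor replicate 1, with 634.7 CPM of hippocampal genes against 51.3 to 60.5 CPM in the other 3 libraries of that experiment, and NaCl replicate 1, with 1293 CPM of olfactory bulb genes against 11.4 to 16.4 CPM.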

How the results depend on the processing

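For PTS + RS against RS, the number of the 9 genes called lower was 0 with limma-voom, in place of 1. It was also 0 when the log2 fold change had to reach 1 in size. The number called higher was 2 without a filter, in place of 0. Over all genes, no filter gave 1119 higher and 716 lower of 30105, in place of 521 and 103 of 17581. Fits without a PTS + RS library leave 1 in that group, and they also called more of all genes in both directions. Whether the calls among the 9 genes go beyond this was not tested. Leaving out 1 library gave 0 to 3 genes higher and 0 to 3 lower. For the tissue labels, DESeq2 gave 2 genes higher and no filter gave 2, in place of 0, and leaving out 1 library, which also dropped the treatment term, gave 0 to 7 higher, 0 to 1 lower and medians of 0.44 to 1.39. Between the labels, no filter called 187 higher and 53 lower of all 28229 tested genes, in place of 0 and 0. For HDAC3 inhibitor against NaCl, 0 of the 9 genes passed in every alternative on the 4 libraries. The set's median ran from -0.17 to 0.79 when 1 library was left out, which keeps 1 library in a group. The replicate number as a block changed no call among the 9 genes. It gave a median of 0.029 for PTS + RS against RS, where all genes called higher went from 521 to 687 and lower from 103 to 228. In that experiment libraries share only a number (correlation of deviations 0.035). No paired analysis was possible for the tissue labels because each label is 1 replicate number. The sign of Slc30a3 in PTS + RS against RS turned with limma-voom (-0.0084), without a filter (-0.0021) and with the replicate block (-0.0073), and that of Neurod6 between the labels without the treatment term (-0.63). Leaving out 1 library also turned signs. For PTS + RS against RS the values then ran from -0.60 to 0.34 for Cux2, -0.095 to 0.18 for Rasgrf2, -0.27 to 0.31 for Calb1, -0.55 to 0.13 for Neurod6 and -0.20 to 0.18 for Slc30a3. For HDAC3 inhibitor against NaCl they ran from -0.50 to 0.026 for Cux2, -1.29 to 0.79 for Lamp5, -0.60 to 0.38 for Rasgrf2, -0.13 to 2.03 for Calb1 and -0.36 to 1.61 for Slc30a3. Between the labels, with the treatment term dropped as well, they ran from -0.80 to 0.64 for Cux1, -0.033 to 0.51 for Cux2, -0.18 to 1.39 for Wfs1 and -1.51 to 2.15 for Neurod6. The causes were not tested. No alternative varied the depth.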
